A study of Mus musculus with 2 samples.

Results

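The genes described here encode the heat shock proteins and their J-domain partners, the main protein-folding machinery of the cell. They were taken by symbol from the GENCODE M21 protein-coding genes, as the Dnaja, Dnajb, Dnajc, Hspa, Hspb and Hsp90 families together with Hsph1, Hspd1 and Hspe1. This gave 72 of 21938 genes. No measured value entered this rule, but the set was chosen with earlier results of these data known. Openness of their chromatin was read from DNase-seq, which sequences the ends of DNA fragments that the nuclease DNase I frees from nuclei, of urinary bladders from female B6CASTF1/J mice at 4 days of age. These animals are F1 hybrids of the strains C57BL/6J and CAST/EiJ, they carry no other allele or treatment that the labels name, and a peak sums both parental copies. The labels give 1 group of 2 biological replicates, listed as differently numbered females that share 1 donor identifier, so the design holds no contrast between conditions and the spread between the libraries may be partly technical.

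Hsp70 proteins bind exposed hydrophobic stretches of unfolded proteins in cycles of ATP binding and hydrolysis. J-domain proteins (DNAJA, DNAJB, DNAJC) deliver clients and trigger hydrolysis, and nucleotide exchange factors, among them the Hsp110 relatives, release them. Hsp90 proteins mature kinases and receptors, the mitochondrial chaperonin encloses single proteins, and the small heat shock proteins (HSPB) hold unfolded chains in solution. Heat and proteotoxic stress raise a subset of these genes through heat shock factor, which binds repeated GAA units at their promoters, and stress in the endoplasmic reticulum (ER) raises another through factors such as ATF6 and XBP1. In the bladder, small heat shock proteins are best known from the smooth muscle of its wall.

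A promoter peak was any peak of the authors' looser list overlapping the 500 bp on either side of an annotated transcription start site (TSS), and its height is the signal the authors deposited. The tallest such peak stands for the gene. Every height was a whole multiple of 1 step per library (0.00466 in replicate 1 and 0.00417 in replicate 2, tolerance 0.02 steps, 100% of peaks). Each height was given an exact Poisson interval by taking 1 step as 1 independent count, which was not tested. The interval covers counting error only, and not the choice of the tallest peak. Should the 2 libraries have been brought to an equal total, replicate 2 would be 1.12 times as deep, while the total depth of either is unknown here. Over all shared promoters the log2 ratio of heights, replicate 2 over replicate 1, had a median of -0.41 (SD 0.27 over genes). Most markers of the labelled tissue had a promoter peak in both replicates, and those of blood and liver did not. The counts were 5 of 5 smooth muscle, 3 of 3 fibroblast and 4 of 5 urothelium genes, at a background of 62.3% over all protein-coding genes. Krt5 had a peak in replicate 2 alone (0.509), and 0 of 3 erythroid and 0 of 3 hepatocyte genes had one. In the authors' stricter lists the counts were 4 smooth muscle, 3 fibroblast and 2 urothelium genes, at a background of 55.0%. Among promoters with a peak in both replicates, the median height percentiles were 25.1 for smooth muscle, 46.9 for fibroblast and 20.3 for urothelium. The bladder is a mixture of cells, and a peak that is low because few cells are open there cannot be told apart from one that is weakly open in many.

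Chaperone promoters were open almost throughout. Of the 72 genes, 65 (90.3%) were open in both replicates, that is, had a promoter peak in each, where the background over all protein-coding genes was 62.3%. In the authors' stricter lists the count was 61 (84.7%), at a background of 55%. Replicate 1 gave a median tallest promoter peak of 3.83 for the chaperone genes and 2.44 for all genes with a peak, and replicate 2 gave 2.77 and 1.80. Of the 72, 43 had a mean height above the median of genes open in both replicates (background 31.2%), and 14 (19.4%) were in the tallest 10% of open promoters, at a mean of 4.79 or more (background 6.23%). The median chaperone promoter thus stood at percentile 70.8 of open promoters. Open promoters were also cut into equal groups by CpG content. Ranked within these groups, the chaperone promoters had a median percentile of 66.0.

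**Figure D1:**
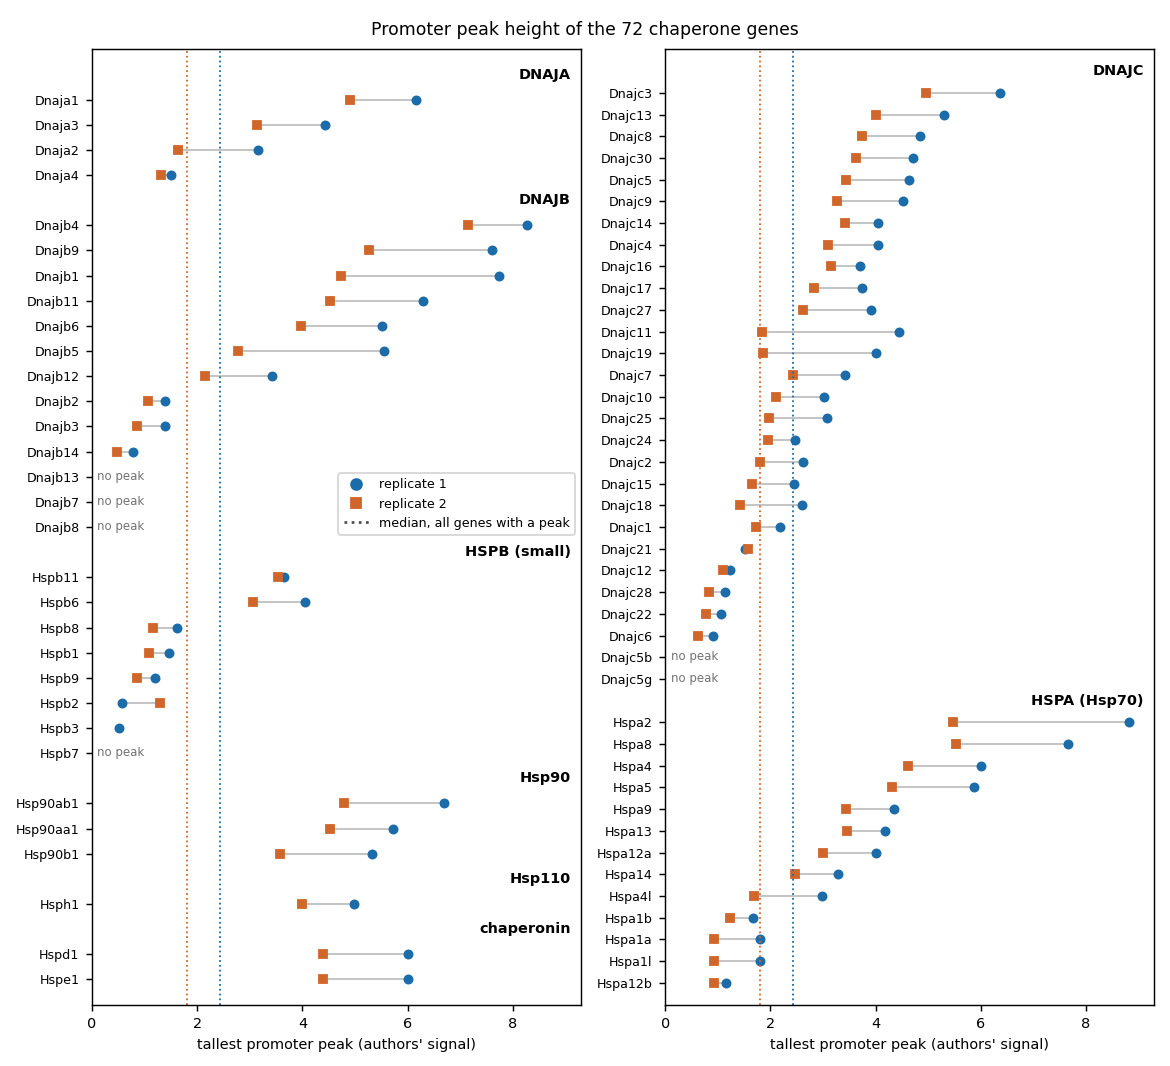
Height of the tallest promoter peak (x axis, the authors' signal) of each of the 72 chaperone genes, grouped by family, with circles for replicate 1, squares for replicate 2 and a grey line joining them. Dotted lines mark the medians over all genes with a peak, 2.44 in replicate 1 and 1.80 in replicate 2; 6 genes have no peak, Hspb3 has one in replicate 1 alone, and the small heat shock genes other than Hspb6 and Hspb11 lie left of both lines.

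The families differed in level. All 13 HSPA genes, all 4 DNAJA genes, all 3 Hsp90 genes, Hsph1 and the chaperonin pair Hspd1 and Hspe1 had a peak in both replicates. So did 10 of 13 DNAJB genes, 26 of 28 DNAJC genes and 6 of 8 HSPB genes, at a background of 62.3% over all protein-coding genes. The median of the mean heights was 4.45 for open DNAJB genes, 3.50 for HSPA, 3.09 for DNAJA and 2.93 for DNAJC. It was 1.33 for HSPB, below the 2.23 of all open genes. By the lists of roles fixed for this work, the median was 5.17 for the 10 heat-inducible genes, of which 6 were in the tallest 10%, 4.13 for the 10 ER genes with 4, and 3.84 for the 8 mitochondrial genes with 2. Hspd1 and Hspe1 count in both the first and the last of these lists and share 1 peak. The 2 mitochondrial genes in the tallest 10% are this pair, and thus 1 measured peak. The heat-inducible list also holds Hspa8, named below as the constitutive Hsp70, while its members Hspa1a, Hspa1b and Hspb1 were low, as given below. None of the 7 small heat shock genes reached the tallest 10%.

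**Figure D2:**
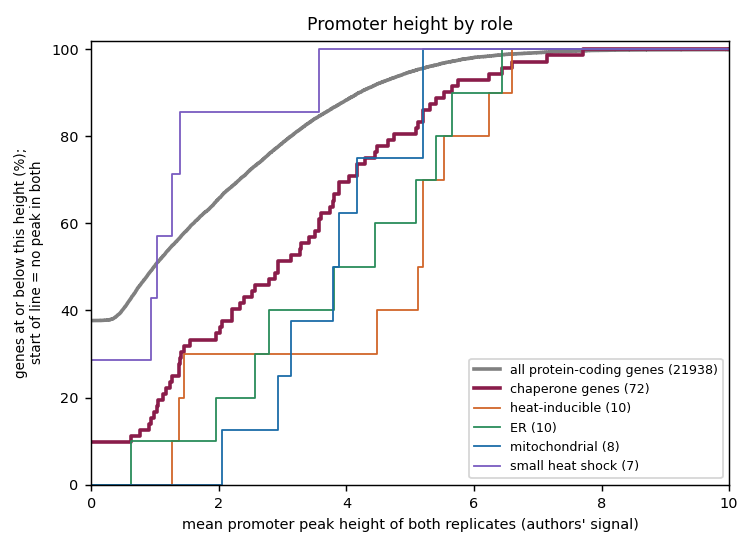
Share of genes at or below each mean promoter height (x axis, the authors' signal; y axis, percent), for all 21938 protein-coding genes, the 72 chaperone genes and 4 lists of roles. Each line starts at the share without a peak in both replicates, and the heat-inducible, ER and mitochondrial lines run to the right of the grey line of all genes over most of the range, while the small heat shock line runs to its left from 1.03 upward.

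The cytosolic Hsp70 system held several of the tallest promoters. Hspa8, the constitutive Hsp70 that also uncoats clathrin vesicles, had a peak of 7.66 in replicate 1 (95% interval 7.29 to 8.04) and 5.54 in replicate 2 (5.24 to 5.84), a mean of 6.60 ± 1.50 (SD, n = 2). Dnajb1, the classical Hsp40 partner of Hsp70, stood at 7.74 and 4.73, and Dnaja1, a farnesylated J-domain protein, at 6.15 and 4.90. The interval of the lower replicate lies above the median of all genes in each of these. Dnajb4, a close relative of Dnajb1, had the tallest mean of the 72, 7.71 ± 0.801 (SD, n = 2), from 8.28 and 7.15. Its peak is shared with Fubp1, which starts next to it on the other strand, and that of Dnajb1 with Tecr, so the height cannot be given to 1 gene of either pair.

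The Hsp110 relatives, which reload Hsp70 with ATP, lay close below. Hspa4 had 6.00 and 4.62 and Hsph1 4.97 and 3.99 in replicates 1 and 2, whereas Hspa4l, a relative best known from testis, had 2.98 and 1.68. Both cytosolic Hsp90 genes were tall, with Hsp90ab1, the constitutive form, at 6.70 and 4.79 and Hsp90aa1, the inducible form, at 5.73 and 4.52. Their intervals within a replicate overlapped in replicate 2 (4.52 to 5.08 and 4.26 to 4.80) and not in replicate 1 (6.35 to 7.05 and 5.41 to 6.06). Among the remaining cytosolic J-domain genes, Dnajb6, a suppressor of protein aggregation, had 5.51 and 3.97 and shares its peak with Gm5129. Dnajc13, an endosomal protein, had 5.29 and 4.01, and Dnajc5, the cysteine string protein of secretory vesicles, 4.64 and 3.44.

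Hspa2 was tall and most other genes listed for testis were not. This Hsp70 gene is known for its role in male germ cells, and in these bladders of female mice it had the second tallest mean of the 72, 7.14 ± 2.36 (SD, n = 2), from 8.81 in replicate 1 and 5.47 in replicate 2, and no other protein-coding TSS shares its peak. Of the 8 genes listed for testis or cilia, 4 were open in both replicates. The other 3 of these were low: Hspb9 had 1.20 and 0.863, Dnajb3 had 1.38 and 0.851, and the values of Hspa1l belong to a region it shares with Hspa1a. Dnajb8, Dnajb13, Dnajc5b and Dnajc5g were without one in either replicate.

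The heat-inducible Hsp70 pair was low. Hspa1a and Hspa1b are neighbouring, nearly identical genes on chromosome 17 that encode the same stress-induced Hsp70. Hspa1b had a peak of 1.67 (95% interval 1.50 to 1.85) in replicate 1 and 1.24 (1.10 to 1.39) in replicate 2. At the start of Hspa1a the peak was 1.80 in replicate 1 and 0.730 in replicate 2, and a separate peak toward Hspa1l, which starts on the other strand, was 1.06 and 0.934. With the tallest peak in each replicate, both Hspa1a and Hspa1l therefore receive 1.80 and 0.934. All of these lie below the medians over all genes, and Hspa1b is at percentile 32.3 of open promoters. Hspb1 (1.46 and 1.08) was the other low gene among the 10 heat-inducible ones.

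The sequence around Hspa1a and Hspa1b is largely repeated. The 150 bases before the 2 start sites, printed here to show how alike they are, are identical at 149 positions (99.3%). They run 5′ to 3′ on the minus strand of mm10, at chr17:34972157-34972306 for Hspa1a and chr17:34959239-34959388 for Hspa1b. Capitals mark a pair of heat shock units (GAANNTTC).
Hspa1a: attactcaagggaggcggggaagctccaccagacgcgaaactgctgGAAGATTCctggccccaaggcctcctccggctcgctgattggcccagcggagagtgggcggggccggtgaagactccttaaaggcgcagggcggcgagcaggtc
Hspa1b: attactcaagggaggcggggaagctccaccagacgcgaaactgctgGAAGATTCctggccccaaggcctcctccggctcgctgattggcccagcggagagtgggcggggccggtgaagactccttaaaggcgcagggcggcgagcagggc
Of the 31-base words in the peak at Hspa1a in replicate 1, 72.4% occur more than once in the genome. For Hspa1b the share was 39.0% of its wide peak in replicate 1 and 69.5% of its narrower peak in replicate 2. In the 500 bp on either side of the start it was 59.3% for Hspa1a, 58.7% for Hspa1b and 36.8% for Hspb1, whose own peaks held 7.84% and 0%. The handling of reads with several placements is not stated by the sources, and the part of repeated sequence in these heights was not tested.

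ER chaperones were open in 10 of 10 cases, and in 9 in the authors' stricter lists. The backgrounds over all protein-coding genes were 62.3% and 55.0%. Dnajb9 (ERdj4), which hands misfolded proteins to degradation, had the tallest ER promoter, with 7.60 in replicate 1 and 5.26 in replicate 2. Dnajc3 (P58IPK), an ER cochaperone first described as a kinase inhibitor, had 6.36 and 4.97, and Dnajb11 (ERdj3) 6.30 and 4.52 in a peak shared with Tbccd1. Hspa5 (BiP), the Hsp70 of the ER lumen, had 5.87 and 4.31, a mean of 5.09 ± 1.11 (SD, n = 2). These 4 were in the tallest 10%. Hsp90b1 (GRP94), the ER form of Hsp90, lay just outside it with 5.32 and 3.56, in a peak shared with Ttc41. At the other end, Dnajb14, a J-domain protein of the ER membrane, had the lowest mean of the 65 open chaperone genes, 0.624 ± 0.204 (SD, n = 2), from 0.768 and 0.479, while its paralogue Dnajb12 had 3.43 and 2.14.

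Mitochondrial chaperones were open in 8 of 8 cases, at a background of 62.3% over all protein-coding genes. Hspd1 (Hsp60) and Hspe1 (Hsp10) start back to back on chromosome 1 and share 1 peak of 6.02 in replicate 1 and 4.40 in replicate 2. Hspa9 (mortalin), the Hsp70 of the matrix, had 4.35 and 3.43. Dnaja3 (Tid1), its matrix partner, had 4.42 and 3.14, and Dnajc30, in a peak shared with Bud23, 4.71 and 3.63. Dnajc15 was lowest of the list, with 2.44 and 1.65. Dnajc19, a part of the protein import motor, and Dnajc11, a protein of the cristae-organising complex, differed more between the replicates and are described below.

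By family median of height, the small heat shock genes were the low end of the set. The 6 open HSPB genes had a median percentile of 29.1 among all open promoters. Ranked within the groups of like CpG content, it was 52.2. Hspb8, a partner of the exchange factor Bag3, had 1.61 and 1.16. Hspb6 (Hsp20), a regulator of smooth muscle relaxation, was the exception with 4.06 and 3.07, but this peak lies at an upstream start site that it shares with Proser3. At the representative TSS of Hspb6 there was a peak in replicate 1 alone, of 0.806. Hspb2 faces Cryab, the alpha-B crystallin gene, and had 0.568 in replicate 1 and 0.546 in replicate 2 at its own start, while the peak between the pair was 1.51 and 1.30. Hspb3, a muscle form, had a peak in replicate 1 alone, 0.512, and Hspb7, known from heart, had none within 500 bp. Hspb11, with 3.65 and 3.54 and a peak shared with Lrrc42, carries the family's symbol but is a subunit of the intraflagellar transport machinery.

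Without a promoter peak in either replicate were Dnajb7, Dnajb8, Dnajb13, Dnajc5b, Dnajc5g and Hspb7. Dnajb8 and Dnajb13 are known from testis, the latter from the axoneme of sperm and cilia. Around the start sites of these 6, the authors' list of bases with a false discovery rate of at most 0.05 held bases for 1 gene in replicate 1 (4 bases near Hspb7) and 0 in replicate 2. Over the 7057 protein-coding genes without a peak it held bases at 1.87% and 1.66%. Beyond the 500 bp, Dnajc5b had peaks of 1.30 and 0.913 and Hspb7 of 1.23 and 0.876 within 1000 bp of a start.

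Some heights depended on which start site was used, but the lowest open genes were no taller at their representative TSS. The 3 lowest means were those of Dnajb14, Dnajc6 (0.763 ± 0.206) and Dnajc22 (0.912 ± 0.199; SD, n = 2), the last from 1.05 and 0.771. Hspb2 came next (0.932 ± 0.515; SD, n = 2). In the stricter lists Dnajb14, Dnajc6, Hspb2 and Dnajb3 lost their call, and Dnajc22 did not. Dnajc6 encodes auxilin, the clathrin-uncoating cochaperone of neurons. Its tallest peaks, 0.908 and 0.617, lie at internal start sites and do not overlap each other. At its representative TSS the mean was 0.468. Hspa12a, an atypical Hsp70, likewise had 4.01 and 2.99 at a start it shares with Eno4, and a mean of 1.67 at its representative TSS.

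The replicates ranked the chaperone promoters almost alike. Across the 65 genes, Pearson's r between the log2 heights was 0.943 and Spearman's rho 0.960, against 0.970 and 0.975 over all 13670 open genes. These are descriptions across genes, which are not replicates, of the same 2 libraries. The median log2 ratio of the chaperone promoters was -0.45, or -0.04 after centring on all shared promoters, and 25 of 65 were above that centre. In 60 of the 65 the tallest peaks of both replicates overlapped (92.3%, against 95.2% of all open genes). The other 5 were Dnajc6, Dnajc27, Hspa1a, Hspa1l and Hspb2.

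**Figure D3:**
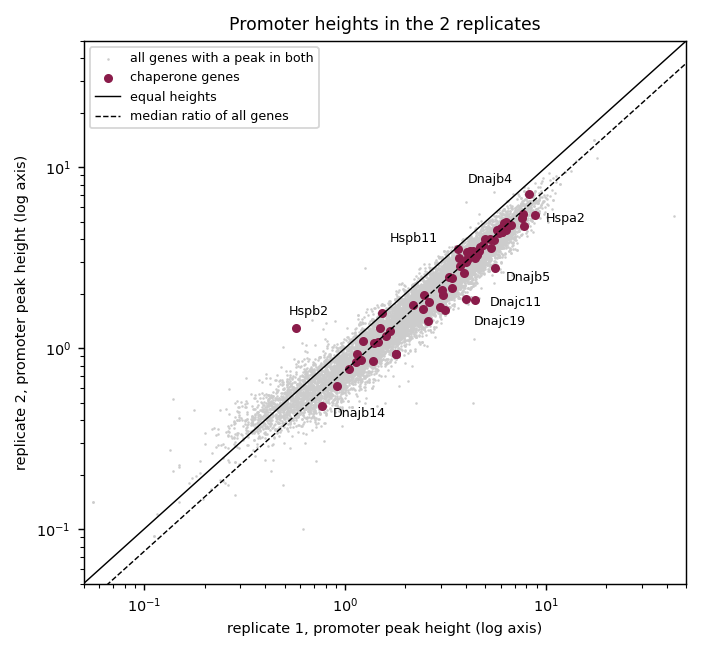
Promoter peak height in replicate 1 (x axis) against replicate 2 (y axis), both log axes of the authors' signal, for the 13670 genes open in both replicates (grey) and the 65 chaperone genes among them (dark). The dashed line is the median ratio of all genes; most chaperone genes lie along it, Hspb2, whose tallest peaks do not overlap, lies above it, and Dnajc11, Dnajc19 and Dnajb5 lie below it.

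Dnajc11 departed most from the common ratio among promoters whose peaks overlapped. It had 4.44 in replicate 1 and 1.84 in replicate 2, a centred log2 ratio of -0.86 with an exact binomial interval of -1.03 to -0.70 from the step counts. Dnajc19 followed with 4.01 and 1.86 (-0.70, interval -0.87 to -0.53), and Dnajb5, a relative of Dnajb1, with 5.56 and 2.77 (-0.59, interval -0.73 to -0.45). In the other direction, Dnajc21, a factor of ribosome assembly, had 1.52 and 1.57 (0.45, interval 0.23 to 0.67), and Hspb11 a centred ratio of 0.37 (0.22 to 0.51). Hspb2 had 1.60, from tallest peaks that do not overlap, centred at -43 bp from its start in replicate 1 and -607 bp in replicate 2. The peak toward Cryab fell within 500 bp of a start of Hspb2 in replicate 2 alone. Within 1000 bp of a start, the tallest peaks of Hspb2 were 1.51 in replicate 1 and 1.30 in replicate 2. By the 500 bp rule, only Hspb2 and Dnajc21 were higher in replicate 2 in uncentred height. With 1 library on each side there is no replicate check of such a ratio, and the intervals cover counting error only.

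Several features went along with the chaperone promoters. In the 300 bases from 250 before to 50 after the representative TSS, GC content had a median of 61.7% against 56.0% over all genes. The ratio of observed to expected CpG had a median of 0.826 against 0.557. Mean height and this CpG ratio had a Spearman correlation of 0.502 over the 65 open chaperone genes and 0.365 over all open genes, a description across promoters of the same libraries. The 6 genes without a peak had CpG ratios from 0.0759 (Dnajb7) to 0.658 (Dnajb13), and Hspb3 had 0.474. A promoter peak lay within reach of another protein-coding start at 20 of 65 chaperone genes (30.8%), where the share was 18.4% over all open genes. Beside the pairs already named, these were Dnajc2 with Psmc2, Dnajc7 with Nkiras2, Dnajc17 with Zfyve19, Dnajc18 with 1700066B19Rik, Dnajc25 with Gm20503, and Hspa14 with Cdnf and Gm45902. The median mean height was 3.53 for these 20 and 3.14 for the other 45, against 2.02 for all open genes with an unshared peak.

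Heat shock elements were the letters of most interest here, and all those found are printed. The element was searched as GAANNTTCNNGAA, 3 alternating units, on both strands in the same 300 bases. It was found at 5 of 72 chaperone promoters (6.94%), where the background over all protein-coding promoters was 0.479%. The sequences run 5′ to 3′ on the strand of the gene in mm10, capitals mark the element, and positions count the TSS base as 0. Dnajb6 holds it at -88 to -76 (chr5:29735844-29735872 as printed, plus strand, in an exon of Dnajb6 and of Gm5129). Hsp90aa1 holds it across its start at -4 to 8 (chr12:110696379-110696407, minus strand, untranslated exon). Hspd1 and Hspe1 share 1 site between their starts, where overlapping matches join to 18 bases of alternating units (chr1:55088053-55088082, minus strand, untranslated exon of an Hspd1 transcript). Hsph1 holds it at -129 to -117 (chr5:149636280-149636308, minus strand, untranslated exon of an upstream transcript).
Dnajb6: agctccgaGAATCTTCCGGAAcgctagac
Hsp90aa1: gagggttcTTCCGGAAGGTTCcggaggct
Hspd1 and Hspe1: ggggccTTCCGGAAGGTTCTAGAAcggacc
Hsph1: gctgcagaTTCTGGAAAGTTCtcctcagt
The sites of Dnajb6, Hsp90aa1 and the Hspd1 and Hspe1 pair overlap a promoter peak in both replicates, and that of Hsph1 overlaps one in neither. Letters of an ETS site (CCGGAAG) also fall within the sites of Dnajb6, Hsp90aa1 and the pair. Of the heat-inducible list, Hspa8, Dnaja1, Dnajb1, Hspb1, Hspa1a and Hspa1b had no match to all 3 units in this window. Pairs of units alone (GAANNTTC) stood at 18 chaperone promoters (25.0%), among them Dnaja1, Dnajb1, Hspb1, Hspa1a and Hspa1b, and at 7.38% of all promoters.

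None of the heat shock elements carried a footprint. A footprint is a stretch the authors list as protected from cutting, and a match counted as footprinted when at least 50% of its bases were inside footprints in each replicate. At open chaperone promoters 0 of 7 matches did so, of which 4 are the site shared by Hspd1 and Hspe1 counted for both genes, and at all open promoters 2 of 60 (3.33%). For pairs of units the counts were 0 of 17 and 3.73%. The pairs at Dnajb6, Hsp90aa1, Hspd1, Hspe1 and Hsph1 are parts of the elements above, so the counts are not separate. Short of the rule, 1 pair at Dnaja4 had all 8 bases inside a footprint in replicate 1 and 0 in replicate 2. The pair at Dnaja1 had 2 bases inside in each replicate. A count of 0 is near these backgrounds. Footprints as such were common: 63 of the 65 promoters had one inside the tallest peak of each replicate (96.9%, against 95.8% of all open genes), the exceptions being Hsp90b1 and Hspb8 in replicate 2.

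Some other motifs were footprinted at these promoters. The cAMP response element (TGACGTCA) stood at Dnajc27, Dnajc30 and Hsp90ab1, and all 3 matches were footprinted, where 72.8% of matches at all open promoters were. They are printed with the element in capitals, on the plus strand at chr12:4082547-4082576 and chr5:135064099-135064128 and on the minus strand at chr17:45573367-45573414.
Dnajc27: gggccccgcaaTGACGTCAcggcgcgcagt
Dnajc30: gcgcgacgcttTGACGTCAtcaatctgcgc
Hsp90ab1: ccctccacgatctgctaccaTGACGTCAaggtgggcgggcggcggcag
In Hsp90ab1 all 8 bases were inside a footprint in replicate 1 and 4 in replicate 2. The NRF1 site (GCGCNTGCGC) was found at 10 chaperone promoters (13.9%, against 6.13% of all), among them Hspa8, Hsp90aa1, Dnajb9 and Hspa4l, and 9 of its 11 matches at open promoters were footprinted (74.0% over all). The GC box (GGGCGG) stood at 50 (69.4%, against 45.4%), with 46 of 109 matches footprinted (34.6% over all). CCAAT stood at 28 (38.9%, against 38.6%), with 9 of 50 matches footprinted (13.0% over all). ETS letters were at 14 (19.4%, against 11.2%), with 3 of 20 matches footprinted (24.1% over all). The remaining motifs had lower shares at chaperone promoters than over all promoters. The TATA box (TATAAA) stood at 6 (8.33%, against 12.6%) and AP-1 (TGANTCA) at 2 (2.78%, against 6.69%). YY1 (AAGATGGCG) and the amino acid response element (TGATGNAA) stood at 1 each (1.39%, against 1.86% and 3.73%), and the CArG box at 0 (1.50% of all). None of their 9 matches at open chaperone promoters was footprinted, where the shares over all open promoters were 8.48% for TATA, 1.88% for AP-1, 20.4% for YY1 and 1.89% for the amino acid response element.

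**Figure D4:**
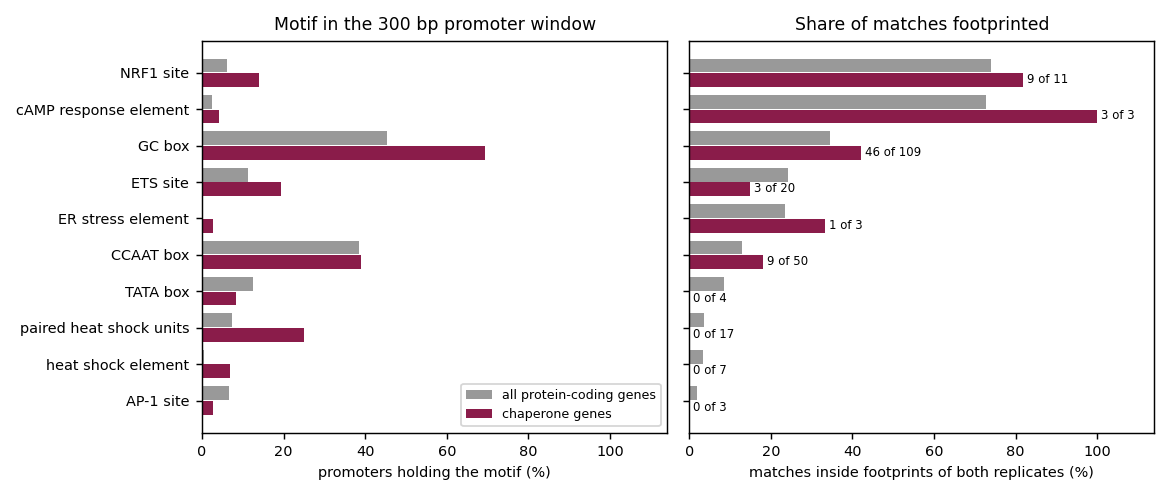
Left, percent of promoters holding each motif in the 300-base window, and right, percent of matches at open promoters inside footprints of both replicates, for all protein-coding genes (grey bars) and chaperone genes (dark bars, with counts on the right). Motifs with at least 3 matches at open chaperone promoters are drawn; the heat shock element has 0 of 7 and paired heat shock units 0 of 17 footprinted, and NRF1 9 of 11.

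The ER stress element (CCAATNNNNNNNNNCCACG), the site through which ATF6 acts, marked 2 ER chaperones. It was found at Dnajc3 and Hsp90b1, 2.78% of the 72, where the background over all protein-coding promoters was 0.128%. The shorter unfolded protein response element (TGACGTGG) stood at Dnajc11 and Dnajc25, also 2.78%, against 0.716% of all promoters. The sites are printed to show which of them were protected, at chr14:118937807-118937865 (plus strand), chr10:86705513-86705571 and chr10:86705618-86705676 (minus strand), chr4:151933640-151933687 and chr4:59003124-59003171 (plus strand).
Dnajc3: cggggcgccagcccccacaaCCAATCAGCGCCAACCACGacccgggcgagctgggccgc
Hsp90b1 site 1: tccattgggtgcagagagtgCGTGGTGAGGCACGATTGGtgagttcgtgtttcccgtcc
Hsp90b1 site 2: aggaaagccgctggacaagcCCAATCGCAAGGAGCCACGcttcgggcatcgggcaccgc
Dnajc11: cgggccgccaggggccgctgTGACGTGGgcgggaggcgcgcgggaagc
Dnajc25: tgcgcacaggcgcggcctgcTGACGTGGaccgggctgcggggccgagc
At Dnajc3, 11 of the 19 bases were inside footprints in each replicate, so this site counted as footprinted. The distal site of Hsp90b1 had 9 bases inside a footprint in replicate 1 and 0 in replicate 2, and the proximal one 0 in both. All 8 bases at Dnajc11 were inside footprints in each replicate, and 0 at Dnajc25. Over all open promoters 23.5% of ER stress elements and 18.9% of unfolded protein response elements were footprinted. Hspa5, Dnajb9 and Dnajb11 had no exact match to either element in this window.

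Genes that work with these chaperones were open at a like rate. Of 50 partner genes from a list fixed for this work, 46 (92.0%) were open in both replicates and 10 were in the tallest 10%. The backgrounds over all protein-coding genes were 62.3% and 6.23%. Hsf1, the master factor of the heat shock response, had 3.86 and 2.79, and Hsf2 had 3.68 and 2.90. Hsf4, known from the lens, had a peak in replicate 1 alone (1.02), and Hsf5, known from testis, had none. All 10 nucleotide exchange factors were open, from Bag2 (1.19 and 0.917) to Hyou1, an Hsp70 relative of the ER (8.06 and 4.15). All 8 cytosolic CCT chaperonin genes matched by symbol were open with a median mean height of 3.46, and all 6 prefoldin genes with 2.26. The median over all open genes was 2.23. All 6 ER stress factors were open, led by Ddit3 (8.12 and 6.10). The muscle-specific Hsp90 cochaperone Unc45b had a peak in replicate 1 alone (0.303), whereas its general paralogue Unc45a had 5.25 and 3.97.

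Distal regions around the chaperone genes were not numerous. A distal region held a peak of both replicates, had its centre over 1000 bp from any TSS, and went to the protein-coding TSS closest to it, up to 100 kb away, which does not show that it acts on that gene. Of the 72 genes, 29 (40.3%) had at least 1, at a background of 43.7% over all protein-coding genes, and 64 regions fell to them in all. The median was 0 per gene in both cases. The regions of chaperone genes had a median mean height of 0.743, against 0.670 over all 25833, and 40 were intergenic, 22 in introns and 2 in exons. None of the 64 held a heat shock element, which 0.375% of all distal regions did, and 8 (12.5%) held an AP-1 site, against 8.89%.

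**Figure D5:**
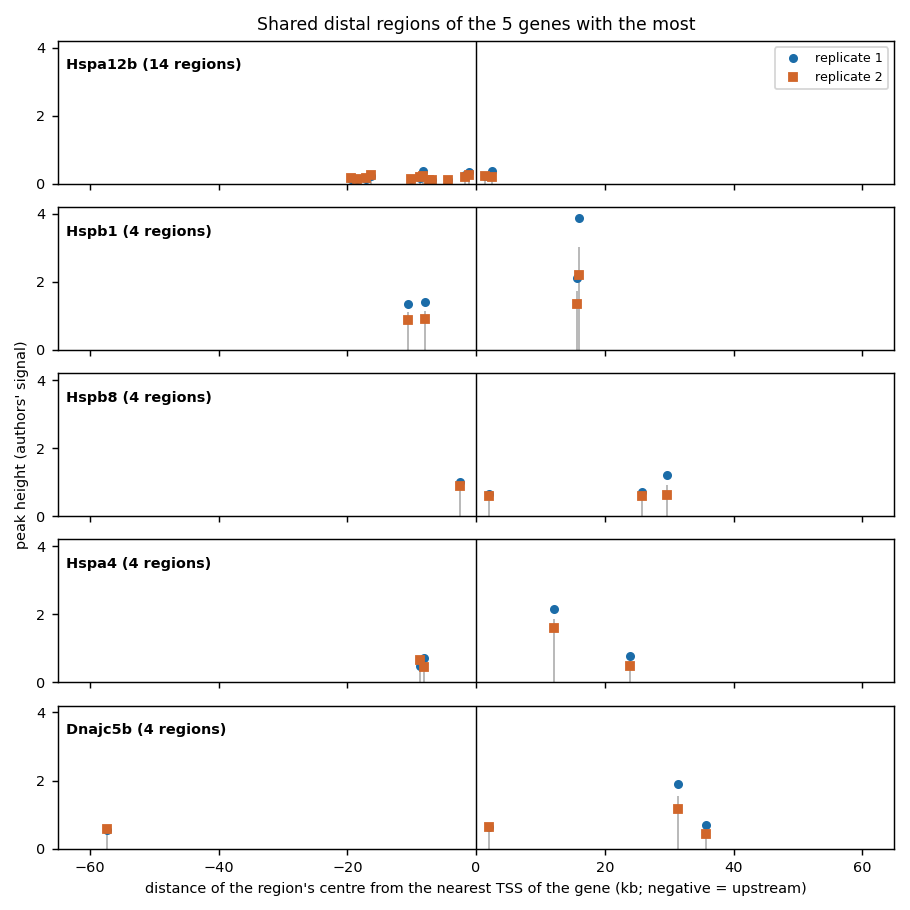
Distal regions shared by both replicates at the 5 chaperone genes with the most: distance of each region from the nearest TSS of the gene (x axis, kb, negative upstream) and height (y axis, the authors' signal; circles replicate 1, squares replicate 2, lines to the mean). The 14 regions at Hspa12b are all low, with means up to 0.302, and the tallest region of the 5 genes is the one at Hspb1, with 3.87 and 2.21.

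Hspb1 had a low promoter and the tallest distal region. It received 4 regions, and the tallest of them, chr5:135903981-135904160, lies between genes 16048 bp downstream of the nearest Hspb1 start, with 3.87 in replicate 1 and 2.21 in replicate 2. That is above the promoter peak of Hspb1 in the same replicate, 1.46 and 1.08. A second region 15733 bp downstream had 2.11 and 1.35, and those at -10541 and -7891 bp had means of 1.11 and 1.15. Hspb8, the other small heat shock gene with 4, had means from 0.615 to 0.945. Hspa4 had 4, the tallest 12120 bp downstream with 2.15 and 1.59. Dnajc5b had 4 without a promoter peak within 500 bp, the tallest inside its intron with 1.90 and 1.16, and Dnajb13, also without one, had a region at -5896 bp with 2.53 and 1.88.

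Hspa12b, an atypical Hsp70 known from endothelial cells, was the gene with most distal regions, 14, and the only chaperone gene with 5 or more (1.39%, against 5.57% of all genes). They spread from -19499 to 2427 bp around its starts and were all low, with means from 0.0873 to 0.302. Its promoter peak was 1.15 and 0.934. Other tall distal regions lay 13948 bp downstream of a Dnajb1 start (2.58 and 1.96), in an intron and an exon of Dnajc11 (means 2.18 and 2.12) and in an intron of Dnajc17 (2.06).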

How the data were processed

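DNase-seq was measured in 2 libraries of 1 group. Per the labels, positions refer to assembly mm10, and per the file headers and descriptions each sample's files were made from its own filtered alignments. Neither labels nor headers name a peak caller, an aligner, a version or a threshold. Peak heights are a signal the authors deposited, on a scale that is not given. The authors' deposited p-value columns hold a false discovery rate (q-value) of at most 0.05 per stretch of bases in 1 list, and 0.01 throughout in the footprint list, of which positions were used.

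The looser of the 2 deposited peak lists of each sample was used except where stated. Peaks were joined to GENCODE M21 starts, peaks of the replicates overlapping by at least 1 bp were shared, and sequence came from the RefSeq GRCm38.p6 genome. Of 112 listed genes, 111 matched by symbol (not Cct6a). The representative TSS was that of the principal, best supported, then longest coding transcript. Heights were in steps, with 95% intervals. No test was run, because 1 group of 2 samples gives no contrast: counts and medians stand beside those over all genes. The members, gene lists and motifs were chosen with earlier results of these data known. Genes named were the 10 tallest, the heat-inducible list, those without a peak in both replicates, the 3 lowest, the 5 with most distal regions, the 3 highest and lowest centred ratios, those with heat shock or ER stress elements, and those sharing a peak; others named illustrate their list and were chosen after their values were seen. Alternatives were the stricter lists, other windows, the representative TSS, other centrings and leaving out a replicate. Scripts, run with Python 3.11.15, numpy 2.4.6, pandas 2.3.3, scipy 1.17.1, numba 0.67.0 and matplotlib 3.10.9, were tested on simulated data.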

Additional observations from a re-analysis of the deposited data

How the results depend on the processing

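No paired analysis was possible because the 2 samples form 1 group. The count of chaperone genes open in both replicates, 65, was 64 at the representative TSS (without Hspb6), 65 within 250 bp and 67 within 1000 bp (with Dnajc5b and Hspb7), and 65 to 66 when either replicate was left out. The median height of 3.29 ran from 3.20 to 3.50 over the stricter lists and other start site choices, and from 2.77 to 3.83 when either replicate was left out. The centred median log2 ratio of -0.04 was -0.45 with no centring and -0.02 among promoters of like height or in the stricter lists. Genes with a distal region, 29 of the 72 (share over all genes 43.7%), were 26 within 50 kb (41.0% over all genes) and 28 beyond 2000 bp (39.8%). They were 22 in the stricter lists (29.3%), 34 without replicate 2 (53.3%) and 41 without replicate 1 (56.4%). Heat shock elements stood at 9 chaperone promoters within 500 bases on either side of the TSS (1.64% of all promoters) and at 18 with 1 letter off allowed (6.19% of all), instead of 5; footprinted matches stayed at 0 under the alternatives run, including at least 1 base inside a footprint. Of single promoters, 2 moved by more than the spread of their replicates at the representative TSS, Dnajc6 and Hspa12a. Counting error limits the low promoters most, and total depth is unknown.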
